A study of Mus musculus with 6 samples.

Results

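The 39 genes described here encode the machinery by which a cell takes up glucose, breaks it down to lactate, stores it as glycogen and responds to low oxygen. They were chosen by name for these functions, with no threshold on measured values but with earlier results of these data known. All 39 were found among the 35275 genes of the expression table. The libraries came from back skin epidermis of CD1 IGS mouse embryos at stage E16.5, and 3 control libraries were compared with 3 K10-spastin libraries. The labels give each library as an independent RNA sample. Dams carried K10-rtTA, TRE-H2B-GFP and TRE-Spastin, received doxycycline food from E14.5, and the cells sequenced were sorted for H2B-GFP from enzymatically dissociated epidermis. In this system the keratin 10 promoter, active in differentiated suprabasal cells, drives the doxycycline-dependent activator rtTA, which switches on a nuclear fluorescent protein and the microtubule-severing enzyme spastin. The genotype label of the K10-spastin group is K10rtTA;TREspastin, and that of the other group is control. The sources used here do not give the transgenes of the control embryos or the number of embryos per library, and each p-value rests on the spread between these libraries, which may be partly technical.

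Glycolysis converts glucose to pyruvate in the cytosol, and lactate dehydrogenase together with lactate export lets it run without mitochondrial oxidation. Hypoxia-inducible factors (HIF) are transcription factors whose alpha subunits are marked for destruction by prolyl hydroxylases when oxygen is present, and many glycolytic genes are among their targets. The epidermis has no blood vessels of its own, and its keratinocytes are known for a high rate of glycolysis with release of lactate.

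Levels are in FPKM, fragments per kilobase of gene scaled to a fixed number of mapped fragments. The induced gene Spast measured 21.2, 24 and 21.4 FPKM in controls 1 to 3 against 1431, 639 and 213 FPKM in K10-spastin 1 to 3, in the direction of the labels. Depth, read from the step size of low values, was 16 to 22.5 M fragments per library, which makes 3 fragments in a gene of 1 kb worth 0.134 to 0.188 FPKM. Markers of suprabasal keratinocytes summed to 51688 to 67976 FPKM among controls and 31269 to 46232 FPKM in K10-spastin libraries, and those of basal keratinocytes to 4083 to 7171 and 2495 to 4723 FPKM. Krt10 on the first list (change -0.81 ± 0.20, limma adjusted p = 0.0438) and Krt15 on the second (-3.05 ± 0.62, 0.0269) fell, 1 of 6 on each. The first sum rests on Krt1 and Krt10, and Dsc1, Krtdap and Sbsn on that list had changes above 0 that were not called (0.61, 0.21 and 0.75). Granular layer markers summed to 1289 to 5360 FPKM among controls and 3270.5 to 14852 FPKM in K10-spastin, the top value resting on Lor in K10-spastin 3. Of the 4 found, Ivl alone was called, and rose (2.54 ± 0.55, limma adjusted p = 0.0321). Fibroblast markers, 1 of 4 tested lower, summed to 6.44 to 42.3 FPKM among controls and 0.791 to 3.03 FPKM in K10-spastin, and red blood cell markers to 7.66 to 331 and 3.79 to 17.4 FPKM with none of 4 tested called. Markers of endothelial cells summed to at most 0.361 FPKM, of striated muscle to at most 2.54 FPKM and of immune cells to at most 2.11 FPKM in any library, with Cd207 and Cd3e listed at 0 in each. Melanocyte markers reached 14.9 FPKM among controls and 23.1 FPKM in K10-spastin, and Merkel cell markers 1.45 and 3.57 FPKM. The part of these differences in cell makeup or layer in the results below was not tested.

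In K10-spastin cells the lactate exporter Slc16a3, the platelet-type phosphofructokinase Pfkp, lactate dehydrogenase A (Ldha) and the HIF prolyl hydroxylase Egln3 rose, and the muscle-type phosphofructokinase Pfkm and the glycogen phosphorylase Pygl fell. Thus 4 of the 38 genes tested were higher and 2 lower by limma at an adjusted p under 0.05. Among all 11071 genes tested, 5.14% were higher and 5.90% lower, 11.0% in all. The share of falls, 5.26%, is near that background, and the share of rises, 10.5%, lies above it on 4 genes. Car9, at a mean below 1 FPKM, was the gene not tested. In a bulk sample fewer cells of a type and less RNA per cell cannot be told apart. The median log2 change of the 38 was 0.41, against -0.09 for all genes tested, and 27 of 38 changes were above 0, against 41.6% of all genes. Changes here and below are of log2(FPKM + 1), K10-spastin minus control, so that a low gene appears to change less than it did, and stand beside their SE. All 3 K10-spastin libraries lay above all 3 controls in 17 of the 38, against 15.6% of all genes tested, and below them in 7, against 24.8%. In either direction the groups did not overlap in 24 of the 38, against 40.4% of all genes tested.

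**Figure D1:**
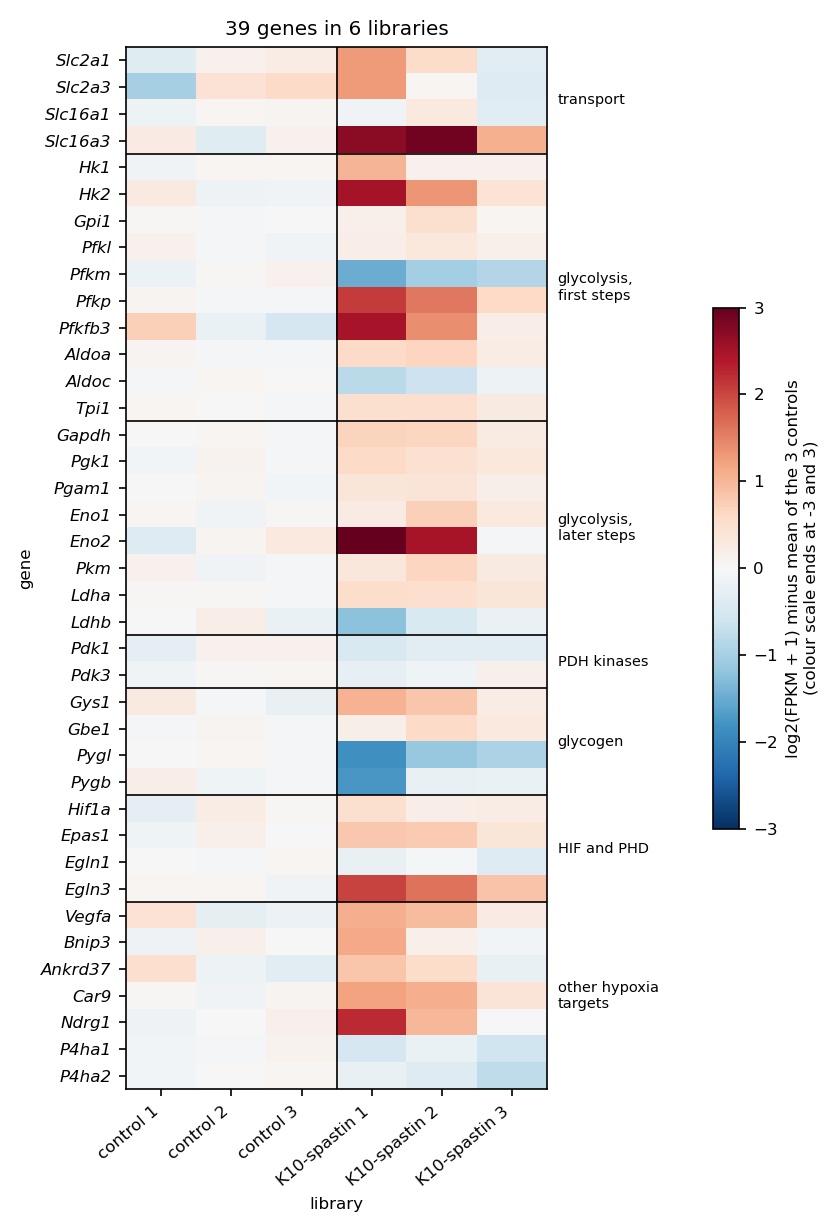
Level of each of the 39 genes (rows, grouped by role) in each of the 6 libraries (columns), as log2(FPKM + 1) minus the mean of the 3 controls, red for higher and blue for lower. K10-spastin 1 holds the strongest colours, Slc16a3, Pfkp and Egln3 are red in all 3 K10-spastin libraries, and Pfkm and Pygl are blue in all 3.

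Many genes of these pathways are HIF targets in other cells, so the promoters of the 4 that rose were read for the core of the hypoxia response element, ACGTG or GCGTG on either strand. The bases before the start site are printed here, 5′ to 3′ on the gene's strand, from RefSeq on GRCm38.p6, with each match in capitals. Ldha has 2 start sites, and both are shown. The bases after the second Ldha start and after the starts of Slc16a3 and Pfkp also lie in a GENCODE M21 transcript of the gene, while those after the first Ldha start and the Egln3 start do not. CACGTG, which also is an E-box, holds ACGTG on both strands and counts as 2.
Slc16a3: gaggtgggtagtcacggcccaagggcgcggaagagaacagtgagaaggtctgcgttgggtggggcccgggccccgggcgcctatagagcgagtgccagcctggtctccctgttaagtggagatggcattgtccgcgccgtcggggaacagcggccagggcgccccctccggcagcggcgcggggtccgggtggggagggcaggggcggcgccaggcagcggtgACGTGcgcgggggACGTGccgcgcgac
Pfkp: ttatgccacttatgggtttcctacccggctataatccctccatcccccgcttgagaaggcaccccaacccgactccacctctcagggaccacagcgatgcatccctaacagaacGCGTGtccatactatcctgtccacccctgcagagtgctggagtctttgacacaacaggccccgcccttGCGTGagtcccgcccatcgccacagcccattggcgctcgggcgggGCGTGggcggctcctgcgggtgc
Ldha first start: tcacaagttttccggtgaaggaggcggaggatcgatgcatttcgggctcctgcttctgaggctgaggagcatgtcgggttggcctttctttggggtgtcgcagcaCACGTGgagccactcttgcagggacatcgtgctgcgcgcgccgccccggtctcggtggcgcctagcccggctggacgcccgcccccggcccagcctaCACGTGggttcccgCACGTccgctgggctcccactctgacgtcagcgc
Ldha second start: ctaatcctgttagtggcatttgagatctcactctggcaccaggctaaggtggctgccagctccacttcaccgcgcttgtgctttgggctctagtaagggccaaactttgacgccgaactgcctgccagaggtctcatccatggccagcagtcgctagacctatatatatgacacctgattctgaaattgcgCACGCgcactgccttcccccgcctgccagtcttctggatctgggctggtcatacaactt
Egln3: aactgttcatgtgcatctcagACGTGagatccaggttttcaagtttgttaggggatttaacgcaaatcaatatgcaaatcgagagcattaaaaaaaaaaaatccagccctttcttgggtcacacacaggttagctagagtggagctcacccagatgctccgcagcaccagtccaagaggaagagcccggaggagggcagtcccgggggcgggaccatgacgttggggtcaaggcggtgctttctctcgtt
They lie at chr11:120948817-120949066 on the plus strand, chr13:6648772-6649021 on the minus strand, chr7:46845554-46845803 and chr7:46846832-46847081 on the plus strand and chr12:54203875-54204124 on the minus strand. In these 250 bases Slc16a3 has 2 matches, at -27 and -14 from the start site, and Pfkp has 3, at -136, -68 and -23. Ldha has 5 before its first start, at -145, -144, -48, -47 and -34, and 1 before its second, at -59, while Egln3 has 1, at -229.

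The motif is common in promoters, so its presence is a description only. In windows of 300 bases, from 250 before to 50 after the start, 36 of the 39 genes had an entry with 50 windows, of which 39 held at least 1 match, or 78.0%, and 30 held 2 or more, or 60%. Of 10980 windows of genes tested, 63.5% held at least 1 match and 34.9% held 2 or more, at a median GC content of 61.3%, against 62.2% for the windows of the 39 genes. Of all 32851 windows, 43.8% held a match. All 5 windows of the genes that rose and 4 of the 5 windows of the genes that fell, Pfkm and Pygl, held one. Among genes not called, 29 of 39 windows held a match. Windows of 1 gene can overlap and share bases. Ndrg1, Slc2a3 and Epas1 had no entry.

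These calls depended on the libraries used. Without control 1, 2 or 3 in turn, limma called 0 of the 38 in either direction, while 14, 10 and 10 were higher and 5, 2 and 2 lower at an unadjusted p under 0.05. In the same 3 fits the calls over all 11071 genes were 219, 142 and 113 higher and 230, 70 and 32 lower. The share of all genes at an unadjusted p under 0.05 is not given here. Counts at that cut, here and below, therefore have no background beside them. Without K10-spastin 2 limma called 0 higher and 2 lower, with 10 and 4 at an unadjusted p under 0.05, and without K10-spastin 1 it called 2 and 2. Without K10-spastin 3, in which Spast was lowest, 12 were higher and 3 lower, against 665 and 701 of all 11071 genes. Leaving out control 1 and K10-spastin 1 together gave 0 higher and 3 lower, with 15 and 5 at an unadjusted p under 0.05. Over all 11071 genes that fit called 634 higher and 625 lower, against 569 and 653 with all libraries. Dropping K10-spastin 1 alone gave 691 higher and 691 lower over all genes, while dropping K10-spastin 2 gave 360 and 344. With the pair or K10-spastin 1 dropped, rises among the 38 thus became fewer, while rises over all genes did not. With no filter on level limma called 1 higher and 2 lower, with array weights 8 and 5, and without a variance trend 2 and 2. Array weights also raised the calls over all 11071 genes, from 569 higher and 653 lower to 1535 and 1771. With no filter these were 319 and 348 of 20977 genes, and without a variance trend 507 and 677 of 11071. Median-of-ratios scaling moved the median of all genes from -0.09 to 0.04, and the median of the 38 stood 0.50 above that of all genes as deposited, 0.51 under this scaling and 0.48 under quantile normalization. With array weights that distance was 0.24, and without K10-spastin 1 it was 0.27.

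Levels of these genes also varied among the 3 K10-spastin libraries. In 18 of the 38, or 47.4%, K10-spastin 1 was the highest and K10-spastin 3 the lowest of the 3, as for Spast, against 11.2% of all genes tested. The opposite order was found in 7, or 18.4%, against 23.9% of all genes. Hk2, Pfkp, Pfkfb3, Eno2, Egln3 and Ndrg1 are among the 18, and Pfkm, Aldoc, Ldhb and Pygl among the 7. Depth was 17.3, 19.6 and 17.4 M fragments in K10-spastin 1 to 3. Their median-of-ratios scaling factors were 0.81, 1.06 and 1.01, against 1.04 to 1.08 in controls. In K10-spastin 1 to 3, 10342, 10901 and 10796 genes reached 1 FPKM. The order was read from FPKM as deposited, and the part of depth and scaling in it was not tested. Ivl, 1 of the 4 granular layer markers found, had the order of Spast, at 405, 192 and 113 FPKM. The sum of the granular markers did not, being highest in K10-spastin 3 through Lor. Spast level and differences of layer cannot be told apart with 3 libraries.

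Glucose entry and lactate exit were served by transporters at very different levels. Slc2a1 (ENSMUSG00000028645), the main glucose transporter of keratinocytes, stood at 486, 677 and 731 FPKM across controls 1 to 3 and 1501, 909.9 and 498 FPKM in K10-spastin 1 to 3. These groups overlapped, since K10-spastin 3 lay just above the lowest control and below the other two, and the change of 0.50 ± 0.38 (limma adjusted p = 0.405) turned to -0.17 with array weights and to -0.063 without control 1 and K10-spastin 1. The high-affinity glucose transporter Slc2a3 was low, at 0.797, 3.87 and 4.33 FPKM in controls and 7.74, 2.75 and 1.73 FPKM in K10-spastin (adjusted p = 0.736). Its longest transcript shares a stretch of at least 200 bases at 90% identity or more with 3 other genes of the table, so its reads may be split.

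Slc16a3 (ENSMUSG00000025161), the monocarboxylate transporter MCT4 that exports lactate from glycolytic cells, showed the largest change of the 38 on the log2(FPKM + 1) scale. With pseudocounts of 0.5 and 0.1 its change was 2.26 and 2.28, and that of Eno2, which was not called, was larger at 2.34 and 2.58. It stood at 22.4, 14.4 and 20.7 FPKM across controls 1 to 3 and 129.6, 147 and 40.6 FPKM in K10-spastin 1 to 3. K10-spastin 3 was the lowest of its group and still above each control. The change was 2.23 ± 0.47 (95% interval 1.13 to 3.32; limma adjusted p = 0.0294), with an adjusted p of up to 0.1 over 16 other settings, 7 of which ended the call: each control, K10-spastin 1 or K10-spastin 2 left out, the pair of libraries numbered 1 left out, and no filter. Slc16a1, the related transporter MCT1 that carries lactate either way, stood at 17.9, 21.2 and 21.5 FPKM in controls and 18.5, 24.9 and 15.8 FPKM in K10-spastin. Its groups overlapped, with a 95% interval of the change of -0.51 to 0.41, and its sign turned to 0.091 under median-of-ratios scaling.

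Of the 10 genes from hexokinase to triose phosphate isomerase, the regulator Pfkfb3 included, 1 rose and 1 fell, against 5.14% and 5.90% of all genes tested. All 3 K10-spastin libraries lay above the controls in 7 and below them in 2, against 15.6% and 24.8% of all genes. Hexokinases trap glucose in the cell, and Hk2 is the isozyme that hypoxia and growth signals raise in many tissues. Hk2 (ENSMUSG00000000628) stood at 163, 123 and 126 FPKM in controls and 769, 343 and 180.4 FPKM in K10-spastin 1 to 3. The groups did not overlap, but K10-spastin 1 lay far above K10-spastin 3. The change of 1.41 ± 0.47 was not called (limma adjusted p = 0.0901; 0.0201 to 0.226 over 16 other settings, lowest without K10-spastin 3). Hk1, the constitutive isozyme, stood at 91.2, 102 and 104 FPKM in controls and 201, 109 and 109 FPKM in K10-spastin, so that only K10-spastin 1 lay clearly above the controls (change 0.43 ± 0.24, adjusted p = 0.270; 0.14 without K10-spastin 1).

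Phosphofructokinase commits the sugar to glycolysis, and of its 3 isozyme genes 1 rose, 1 fell and 1 was not called. Pfkp (ENSMUSG00000021196) stood at 43.3, 39.6 and 39.3 FPKM across controls 1 to 3 and 179, 125 and 62.0 FPKM in K10-spastin 1 to 3, a change of 1.43 ± 0.35 (95% interval 0.62 to 2.24; limma adjusted p = 0.0432). Pfkm (ENSMUSG00000033065) stood at 10.4, 12.4 and 13.2 FPKM in controls and 3.62, 5.37 and 6.01 FPKM in K10-spastin, a change of -1.13 ± 0.21 (95% interval -1.63 to -0.63; limma adjusted p = 0.0216). In both genes the groups did not overlap and K10-spastin 1 lay farthest from the controls. Pfkl (ENSMUSG00000020277), the most abundant of the 3, stood at 564, 503 and 480.1 FPKM in controls and 593, 643 and 576 FPKM in K10-spastin (change 0.23 ± 0.12, adjusted p = 0.232). The rise of Pfkp was lost in 10 of 16 other settings, including both scalings, with an adjusted p of 0.00459 to 0.139, and the fall of Pfkm was lost with each control left out (0.0534, 0.0911 and 0.104 without control 1, 2 and 3). Exons of both overlap a gene on the other strand, and whether reads were counted by strand is not known from the sources. The partner of Pfkp, Pitrm1, stood at 23.0, 20.97 and 20.8 FPKM in controls and 31.5, 31.4 and 25.3 FPKM in K10-spastin, and that of Pfkm, Senp1, at 13.6, 16.002 and 15.5 against 15.7, 22.0 and 18.8 FPKM, the opposite direction to Pfkm.

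Pfkfb3 makes the small sugar phosphate that activates phosphofructokinase. It stood at 37.4, 19.1 and 15.3 FPKM in controls and 128, 59.8 and 25.6 FPKM in K10-spastin, and control 1 lay above K10-spastin 3. Its change of 1.35 ± 0.57 was not called (limma adjusted p = 0.155; 0.0405 to 0.371 over 16 other settings, lowest without K10-spastin 3). Gpi1, which isomerises glucose phosphate, had a change of 0.23 ± 0.14 that was not called (adjusted p = 0.295). Aldolase splits the sugar, and its isozyme genes had changes of opposite sign. Aldoa stood at 1244, 1145 and 1161 FPKM in controls and 1750.4, 1845 and 1376 FPKM in K10-spastin (change 0.47 ± 0.15, adjusted p = 0.0764). Aldoc stood at 69.7, 76.5 and 72.9 FPKM in controls and 41.5, 46.8 and 65.4 FPKM in K10-spastin (change -0.53 ± 0.18, adjusted p = 0.0970). Neither pair of groups overlapped and neither change was called. Tpi1, which interconverts the triose phosphates, measured 1391 ± 58.4 FPKM in controls against 1869 ± 160.0 FPKM in K10-spastin (SD, n = 3), with no overlap (change 0.42 ± 0.12, adjusted p = 0.0662).

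**Figure D2:**
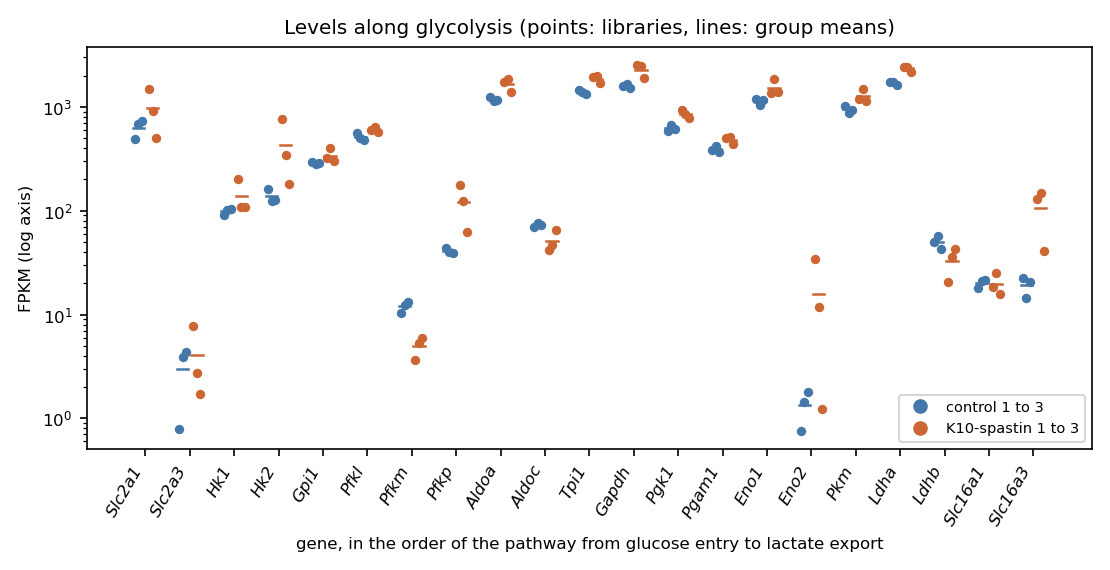
FPKM on a log axis for 21 genes in the order of the pathway, from glucose transporters to lactate exporters, with 3 control and 3 K10-spastin libraries as points and group means as lines. Gapdh and Ldha hold the highest points, with Ldha at 1611 to 2444 FPKM, while Hk2, Pfkp, Eno2 and Slc16a3 spread widely in K10-spastin.

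Apart from Ldhb and Eno2, the later enzymes, from glyceraldehyde phosphate dehydrogenase to lactate dehydrogenase, were among the most abundant transcripts of these cells. Their differences were of similar size, 0.31 to 0.52 on the log2 scale. Of all 8 later genes, with Ldhb and the enolase Eno2 included, 1 rose and none fell, against 5.14% and 5.90% of all genes tested. In 6 all 3 K10-spastin libraries lay above the controls, against 15.6% of all genes. Ldha (ENSMUSG00000063229), whose enzyme turns pyruvate into lactate, had the highest mean of the 39 genes in both groups, though Gapdh lay above it in K10-spastin 1 and 2 and, summed with its copies, in both means. It stood at 1736, 1729 and 1611 FPKM across controls 1 to 3 and 2444, 2403 and 2186 FPKM in K10-spastin 1 to 3, close within each group and with no overlap. The change was 0.47 ± 0.12 (95% interval 0.19 to 0.75; limma adjusted p = 0.0480). This call was lost in 10 of 16 other settings, with an adjusted p of 0.0137 to 0.192 and a change of 0.30 under quantile normalization, and the sign was the same in each. Ldhb, the isozyme that favours the reverse reaction, stood at 49.7, 56.7 and 42.6 FPKM in controls and 20.4, 35.9 and 42.6 FPKM in K10-spastin, where K10-spastin 3 met the lowest control (change -0.63 ± 0.27, adjusted p = 0.161).

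Pgk1, Gapdh, Pkm, Eno1 and Pgam1 carry out the steps between, and none of the 5 was called. Their changes were 0.45, 0.52, 0.42, 0.42 and 0.31, with limma adjusted p of 0.0577, 0.0641, 0.0927, 0.117 and 0.125, and K10-spastin libraries were above all controls in each. Pgk1, which makes the first ATP of the pathway, measured 621 ± 39.2 FPKM in controls against 849.6 ± 78.0 FPKM in K10-spastin (SD, n = 3) and was called under quantile normalization (0.0435). Pkm, pyruvate kinase, measured 945 ± 77.3 FPKM in controls against 1272 ± 174 FPKM in K10-spastin (SD, n = 3) and was called under median-of-ratios scaling (0.0395), as was Eno1 (0.0356). Over 16 other settings the limma adjusted p reached 0.198, 0.277 and 0.321 for Pgk1, Pkm and Eno1. The table holds 1 value per gene, so splice forms of Pkm cannot be read from it.

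Gapdh and Eno1 have near-identical copies in the genome, so their values are uncertain. Gapdh stood at 1578, 1654 and 1521 FPKM in controls and 2514, 2462 and 1887 FPKM in K10-spastin. Summed with 178 copies in the table, the levels were 1961, 1994 and 1855 FPKM in controls and 3393, 3268 and 2588 FPKM in K10-spastin. The copy with the highest level, Gm13394, held 346, 312 and 300.4 FPKM in controls and 853, 771 and 670.3 FPKM in K10-spastin, so the difference between the groups is larger with the copies than without. Eno1 with 2 copies stood at 1338, 1160.0 and 1239.5 FPKM in controls and 1856, 2102 and 1480.1 FPKM in K10-spastin.

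Eno2, the enolase best known from neurons, was low in control cells. It stood at 0.761, 1.44 and 1.81 FPKM in controls and 34.2, 11.8 and 1.23 FPKM in K10-spastin 1 to 3. K10-spastin 3 lay within the control range. The change of 2.12 ± 0.89 was not called (limma adjusted p = 0.152; 0.0103 to 0.492 over 16 other settings, lowest without K10-spastin 3). As a whole, the 17 enzymes summed to 1.65%, 1.58% and 1.57% of all FPKM across controls 1 to 3 and to 2.30%, 2.31% and 1.88% in K10-spastin 1 to 3. That sum was higher in each K10-spastin library than in each control, and rests mostly on the abundant enzymes. With Pfkfb3 added, 15 of 18 changes were above 0 here and under each of 16 other settings, against 41.6% of all genes here. Pfkm, Aldoc and Ldhb were below 0 here. In 13 of the 18 K10-spastin lay above all controls, against 15.6% of all genes tested.

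**Figure D3:**
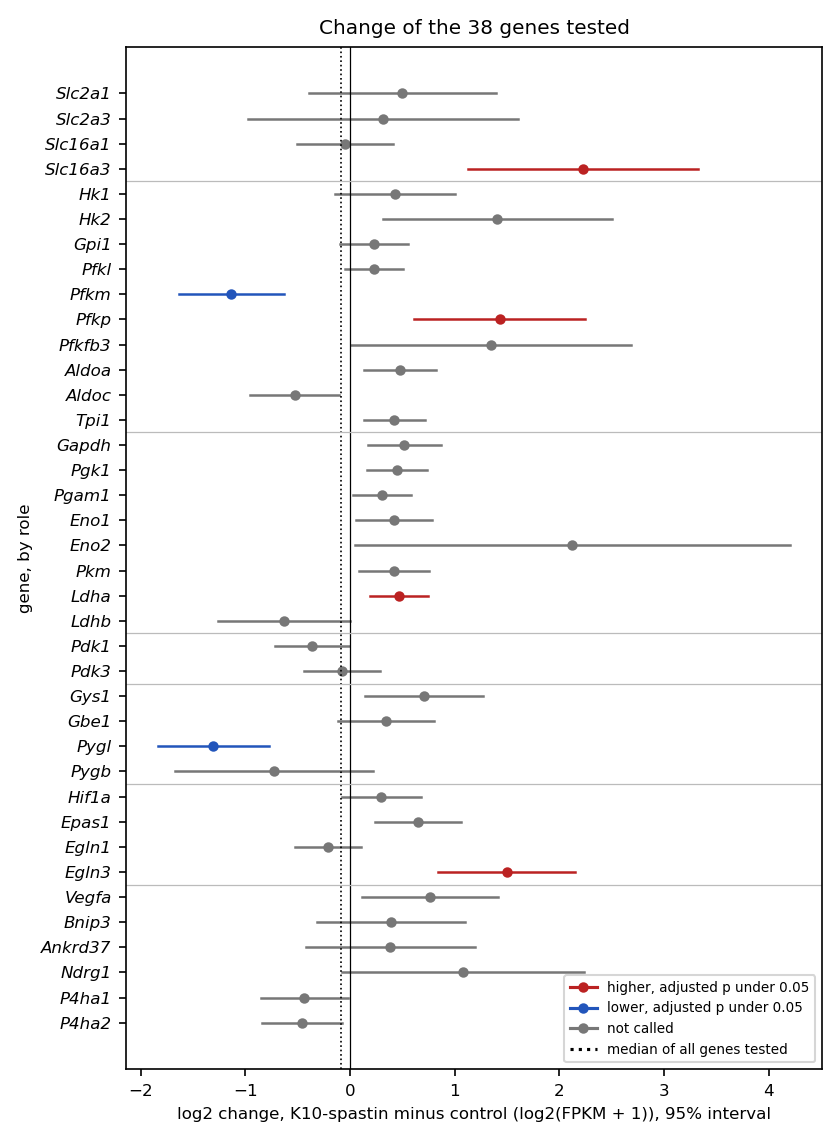
Log2 change of the 38 genes tested, K10-spastin minus control on log2(FPKM + 1), with 95% intervals from limma, ordered by role. Red points are the 4 genes that rose and blue points the 2 that fell, and most grey glycolytic enzymes sit between 0.2 and 0.5 with narrow intervals right of the dotted median of all genes.

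Within a library, levels per length can be compared between isozymes, and a share of their sum does not change with the scaling of the library. Of 9 such shares, 4 had groups that did not overlap, each with an exact two-sided permutation p of 0.1, the smallest that 3 against 3 allows, and 0.225 adjusted over the 9. Slc16a3 made up 55.6%, 40.5% and 49.0% of Slc16a1 plus Slc16a3 in controls 1 to 3 and 87.5%, 85.5% and 72.0% in K10-spastin 1 to 3, or 48.4% ± 7.54 against 81.7% ± 8.46 (SD, n = 3). Pfkp made up 7.01%, 7.14% and 7.39% of the 3 phosphofructokinases in controls and 23.1%, 16.1% and 9.63% in K10-spastin, or 7.18% ± 0.191 against 16.3% ± 6.72 (SD, n = 3). The controls were almost equal, and K10-spastin 3 was nearest to them. By contrast the minor isozymes Aldoc and Ldhb had lower shares in K10-spastin. Aldoc made up 5.83% ± 0.484 of the 2 aldolases in control and 3.11% ± 1.24 in K10-spastin (SD, n = 3). Ldhb made up 2.85% ± 0.305 in control and 1.40% ± 0.545 in K10-spastin of the 2 lactate dehydrogenases (SD, n = 3). For hexokinase the groups overlapped, with Hk2 at 57.8% ± 5.45 of Hk1 plus Hk2 in control and 72.5% ± 8.91 in K10-spastin (SD, n = 3; exact permutation p = 0.2, adjusted 0.3). The shares of Pygl, Eno2, Slc2a1 and P4ha2 in their pairs overlapped too (exact permutation p = 0.2, 0.3, 0.8 and 1).

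**Figure D4:**
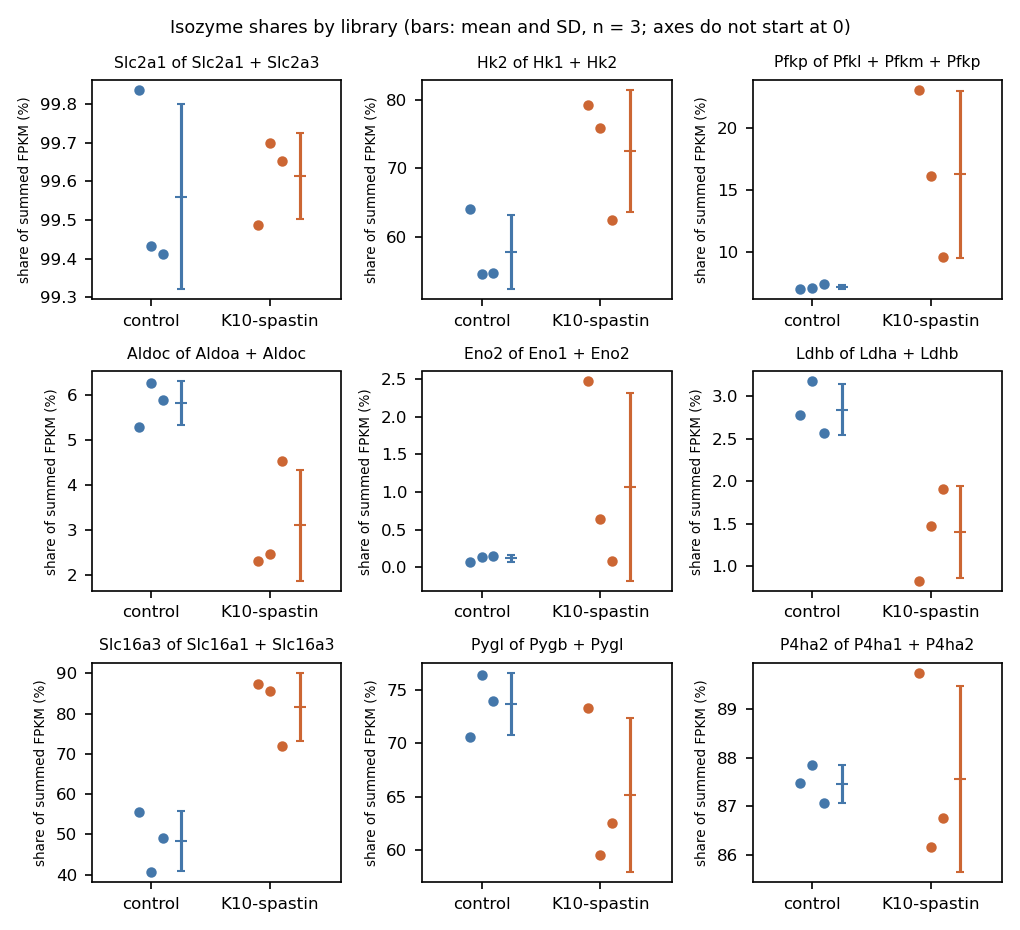
Share of one isozyme in the summed FPKM of its isozymes, in percent, in 3 control and 3 K10-spastin libraries (points), with mean and SD beside them and a separate axis in each panel. The panels of Slc16a3, Pfkp, Aldoc and Ldhb show groups that do not overlap, and in the others at least 1 library crosses.

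Glycogen is made by glycogen synthase and branching enzyme and released by glycogen phosphorylase. Pygl (ENSMUSG00000021069), the liver-type phosphorylase and the more abundant one here, fell. It stood at 124, 130.5 and 121 FPKM across controls 1 to 3 and 34.4, 56.2 and 64.1 FPKM in K10-spastin 1 to 3, well apart, with K10-spastin 1 the lowest. The change was -1.31 ± 0.23 (95% interval -1.83 to -0.78; limma adjusted p = 0.0175), and was called in 13 of 16 other settings, but not without control 1, 2 or 3 (0.00187 to 0.0755 over the 16). Pygb, the brain-type enzyme, stood at 51.4, 40.3 and 42.5 FPKM in controls and 12.5, 38.1 and 38.4 FPKM in K10-spastin, where K10-spastin 1 was far below the other two (change -0.73 ± 0.40, adjusted p = 0.262; -0.21 without K10-spastin 1). Gys1, glycogen synthase, stood at 37.7, 30.1 and 26.2 FPKM in controls and 65.1, 56.1 and 36.5 FPKM in K10-spastin. Its groups overlapped at K10-spastin 3 (change 0.70 ± 0.24, limma adjusted p = 0.0962; 0.0320 to 0.274 over 16 other settings, lowest without K10-spastin 3). Its exons overlap Ruvbl2 on the other strand, at 36.6 to 72.7 FPKM. Gbe1, the branching enzyme, was low and measured 1.52 ± 0.131 FPKM in controls against 2.22 ± 0.472 FPKM in K10-spastin (SD, n = 3), with no overlap and no call (adjusted p = 0.267).

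The pyruvate dehydrogenase kinases inhibit pyruvate dehydrogenase and so hold pyruvate back from mitochondrial oxidation, and Pdk1 is a classic HIF target. Neither of the 2 listed was called by limma, with 1 lower at an unadjusted p under 0.05. Pdk1 stood at 59.0, 78.0 and 78.3 FPKM in controls and 51.5, 56.8 and 56.9 FPKM in K10-spastin, the K10-spastin libraries all below the controls (change -0.37 ± 0.15, adjusted p = 0.147). Pdk3 had a change of -0.076 ± 0.15 (adjusted p = 0.773), with the sign turned under median-of-ratios scaling (0.067).

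Among the oxygen-sensing genes themselves, 1 of 4 rose, against 5.14% of all genes tested. Egln3 (ENSMUSG00000035105), the prolyl hydroxylase that HIF itself induces in many cells, stood at 44.2, 44.1 and 39.1 FPKM across controls 1 to 3 and 175, 133 and 77.3 FPKM in K10-spastin 1 to 3. The controls were close together and K10-spastin 3, the lowest of its group, was well above them. The change was 1.497 ± 0.28 (95% interval 0.84 to 2.15; limma adjusted p = 0.0207), called in 11 of 16 other settings, among them no filter and both scalings, with an adjusted p of up to 0.0897 without any one control, K10-spastin 2, or control 1 and K10-spastin 1 together. Egln1, the main oxygen sensor of the family, stood at 65.2, 62.5 and 67.6 FPKM in controls and 56.0, 63.6 and 49.6 FPKM in K10-spastin, which overlap (change -0.21 ± 0.13, adjusted p = 0.321). The transcript of the alpha subunit Hif1a, whose protein is controlled mostly by degradation, had a change of 0.30 ± 0.16 (95% interval -0.08 to 0.68; adjusted p = 0.245). Epas1, which encodes the second alpha subunit, stood at 15.8, 19.3 and 17.2 FPKM in controls and 31.3, 30.7 and 22.5 FPKM in K10-spastin, apart but not called (change 0.65 ± 0.18, adjusted p = 0.0564). Epas1 is also strongly expressed in endothelium, whose markers summed to 0.164 to 0.278 FPKM among controls and 0.254 to 0.361 FPKM in K10-spastin libraries. The part of endothelium in the Epas1 levels was not tested.

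The other 6 tested hypoxia targets gave no call by limma, with 1 higher and 2 lower at an unadjusted p under 0.05, and their signs were mixed. Ndrg1, a stress-induced gene of differentiating epithelia, stood at 315, 351 and 391 FPKM in controls and 1659.8, 701 and 352 FPKM in K10-spastin. K10-spastin 3 lay within the control range (change 1.08 ± 0.49, adjusted p = 0.182; 0.0333 to 0.477 over 16 other settings, lowest without K10-spastin 3). Vegfa, the growth factor that draws in blood vessels, stood at 85.8, 51.7 and 56.0 FPKM in controls and 136, 123 and 74.8 FPKM in K10-spastin, where control 1 was above K10-spastin 3 (change 0.77 ± 0.28, adjusted p = 0.108). Bnip3, which marks mitochondria for removal, was well above the controls in K10-spastin 1, level with the highest control in K10-spastin 2 and within their range in K10-spastin 3, at 97.5, 119 and 108 FPKM in controls and 238, 119.6 and 101 FPKM in K10-spastin. Its change of 0.39 ± 0.30 (adjusted p = 0.408) was 0.027 without K10-spastin 1.

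P4ha1 and P4ha2 encode collagen prolyl hydroxylases, which many cells raise in hypoxia. Both were lower in each K10-spastin library than in each control. P4ha1 measured 9.44 ± 0.715 FPKM in controls against 6.76 ± 1.12 FPKM in K10-spastin and P4ha2 measured 65.8 ± 3.67 FPKM in controls against 48.1 ± 8.82 FPKM in K10-spastin (SD, n = 3), and neither was called (changes -0.44 and -0.46, limma adjusted p = 0.144 and 0.104; 0.0243 and 0.00632 with array weights). Markers of fibroblasts, the main collagen source of skin, summed to 6.44 to 42.3 FPKM among controls and 0.791 to 3.03 FPKM in K10-spastin, and their part in this was not tested. Ankrd37 was low, at 4.80, 2.72 and 2.23 FPKM in controls and 6.38, 4.98 and 2.51 FPKM in K10-spastin (adjusted p = 0.482), and its exons overlap Ufsp2 on the other strand, which stood at 23.8 to 27.6 FPKM. Car9, the membrane carbonic anhydrase used as a marker of hypoxic cells, stood at 0.104, 0 and 0.141 FPKM in controls and 1.48, 1.31 and 0.404 FPKM in K10-spastin. Its control values are near the limit of detection, and with no filter its change was not called (adjusted p = 0.0808).

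Further genes of these pathways, 126 on 7 lists, were compared in the same fit. Of 88 tested, 5 rose and 8 fell, 5.68% and 9.09%, against 5.14% and 5.90% of all genes tested. The share of rises is near that background, and the share of falls lies above it on 8 genes. The median change of the 88 was -0.16, against -0.09 for all genes, and 37.5% of changes were above 0, against 41.6%. All 3 K10-spastin libraries lay below the controls in 31.8% of the 88, against 24.8% of all genes, and above them in 13.6%, against 15.6%. In glucose transport, glycolysis and gluconeogenesis 3 of 14 rose and 1 fell. Pfkfb4, a relative of Pfkfb3 that HIF induces, stood at 3.30, 4.35 and 4.41 FPKM in controls and 42.3, 21.2 and 20.8 FPKM in K10-spastin. All 3 K10-spastin libraries were far above the controls, and the change of 2.46 ± 0.29 (limma adjusted p = 0.00698) was called in each of 16 other settings. Minpp1, an inositol polyphosphate phosphatase that also acts on a glycolytic intermediate, rose by 1.19 ± 0.16 (adjusted p = 0.00955). Pck2, the mitochondrial enzyme that makes phosphoenolpyruvate, was named after its values were seen, and rose by 0.99 ± 0.22 from a low level (adjusted p = 0.0324). Pgam2, the muscle-type phosphoglycerate mutase, fell (18.3 ± 1.92 FPKM in controls against 8.46 ± 1.61 FPKM in K10-spastin; SD, n = 3; change -1.04 ± 0.18, adjusted p = 0.0182). Striated muscle markers summed to 1.45 to 2.54 FPKM among controls and 1.37 to 2.17 FPKM in K10-spastin, and the part of muscle in this fall was not tested. Bsg, the chaperone of lactate transporters, had a change of 0.12 ± 0.14 (adjusted p = 0.585).

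Genes of pyruvate dehydrogenase and of pyruvate entry into mitochondria gave 0 rises and 2 falls among 11, against 5.14% and 5.90% of all genes tested. At an unadjusted p under 0.05 by limma, 0 were higher and 4 lower. Pdk2, a pyruvate dehydrogenase kinase of the same family as Pdk1, stood at 9.68, 10.3 and 9.99 FPKM in controls and 0.246, 1.47 and 3.20 FPKM in K10-spastin. The groups were far apart, with K10-spastin 1 lowest (change -2.23 ± 0.41, limma adjusted p = 0.0201). Pdp1, the phosphatase that undoes the work of these kinases, also fell (change -0.79 ± 0.20, adjusted p = 0.0492), and was not called in 12 of 15 other settings. The pyruvate carrier subunit Mpc2 and the dehydrogenase subunit Pdha1 gave log2 changes of -0.62 ± 0.18 and -0.070 ± 0.15 (adjusted p = 0.0677 and 0.790), the second turning to 0.076 under median-of-ratios scaling.

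No gene of the pentose phosphate pathway (8 tested) or of the further glycogen genes (18 tested) was called by limma, with 1 and 0, and 1 and 2, higher and lower at an unadjusted p under 0.05. In the former, Pgd, Tkt, H6pd and Rpe gave 0.32, 0.19, -0.60 and -0.27 on the log2 scale (adjusted p = 0.130, 0.458, 0.319 and 0.394). In the latter, the phosphorylase kinase subunit Phkb, the glycogen-binding Stbd1 and the lysosomal glucosidase Gaa gave log2 changes of -0.54, 0.66 and -0.25 (adjusted p = 0.0605, 0.0773 and 0.225).

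Of 6 further HIF pathway genes 1 fell, against 5.90% of all genes tested. Hif3a, an alpha subunit with forms that restrain the other two, stood at 8.19, 6.96 and 5.63 FPKM in controls and 0.903, 1.75 and 1.61 FPKM in K10-spastin. Every K10-spastin library was below every control, and the change of -1.72 ± 0.23 (limma adjusted p = 0.00955) was called in each of 15 other settings that tested it. The HIF partner Arnt and the hydroxylase Egln2 gave log2 changes of -0.36 and -0.39 (adjusted p = 0.154 and 0.312). Of 27 further hypoxia targets 1 rose and 4 fell, against 5.14% and 5.90% of all genes tested. Insig2, which also holds back sterol synthesis, rose by 1.03 ± 0.20 (adjusted p = 0.0242), and the growth factor Pdgfb and the abundant mitochondrial protein Ndufa4l2 changed by -1.56 ± 0.27 and -0.56 ± 0.11, both lower (adjusted p = 0.0177 and 0.0241). The other two that fell, named after their values were seen, were the hormone Stc1 and the transferrin receptor Tfrc (changes -1.33 ± 0.29 and -0.74 ± 0.18, adjusted p = 0.0310 and 0.0428). Stc1 was listed at 0 in K10-spastin 1. Of the 13 further genes called over all lists, Pfkfb4 and Hif3a held their call in each other setting that tested them, and each of the other 11 lost it without at least 1 control (Minpp1 without control 3, with an adjusted p of 0.0590).

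The 2 arrestin-domain genes that glucose induces through the sensor Mlxip had changes of opposite sign. Arrdc4 stood at 12.6, 14.4 and 13.3 FPKM in controls and 23.9, 27.7 and 22.2 FPKM in K10-spastin, and rose by 0.83 ± 0.15 (limma adjusted p = 0.0198). Txnip, which restrains glucose uptake, stood at 238, 196 and 166 FPKM in controls and 3.73, 23.3 and 85.1 FPKM in K10-spastin 1 to 3. The groups did not overlap, but the K10-spastin libraries were spread widely, and the change of -3.21 ± 0.91 was not called (adjusted p = 0.0622; 0.0120 to 0.161 over 16 other settings). Mlxip itself had a change of -0.51 ± 0.18 (adjusted p = 0.103).

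**Figure D5:**
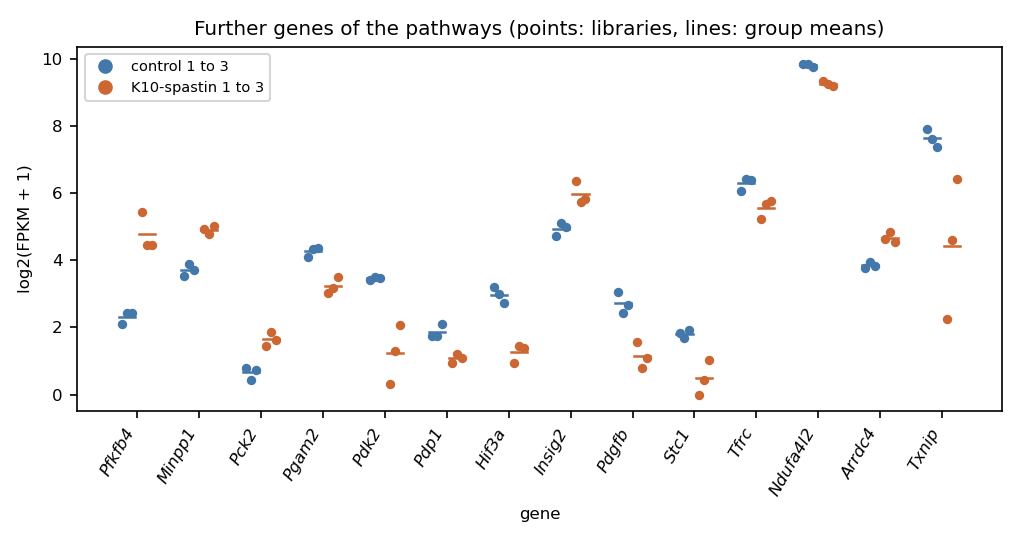
Level of 14 further pathway genes as log2(FPKM + 1) in 3 control and 3 K10-spastin libraries (points), with group means as lines. Pfkfb4, Minpp1, Pck2, Insig2 and Arrdc4 lie higher in K10-spastin, the other 9 lower, and Txnip shows the widest spread among K10-spastin libraries.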

How the data were processed

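RNA of sorted epidermal cells was sequenced in 6 libraries. The deposited values are FPKM, 1 column per library, as the authors computed them; the submitters' processing notes list the tools CASAVA and TopHat2. Counter, build, annotation and strand setting: not given in the sources used here. Symbols matched 34490 of 35275 identifiers and were missing for 785.

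The 11071 genes averaging 1 FPKM or more were compared on log2(FPKM + 1) with limma 3.58.1 in R 4.3.3 (lmFit, eBayes with a trend, two-sided, Benjamini-Hochberg over all genes tested, called at an adjusted p under 0.05). FPKM are not counts, so no count test was run. On data simulated from these libraries, a small set of genes of middle level was changed. Of these, 47% changed 2-fold and 92% changed 4-fold were called, and 7.33% of calls were on unchanged genes. Genes as abundant as Ldha or as low as Gbe1 were not among those changed. The simulated noise was independent between genes, with the same SD on the log2 scale in both groups. Genes such as Hk2 spread more in K10-spastin (SD 22.4 FPKM in controls, 304 FPKM in K10-spastin; n = 3). These rates do not cover any of these genes. Isozyme shares were compared by the exact permutation test (scipy 1.17.1). Depth was read from 14953 genes with 1 transcript in GENCODE M21, with 90.8% to 91.7% of values up to 20 fragments whole within 0.05. Copies were found with BLAST 2.17.0 at 90% identity over 200 bases. The 39 genes, the further lists and the tests were chosen with earlier results of these data known. All 39 could be named, and of each further list the 3 genes of smallest p plus the most abundant gene; 1 gene so chosen is not reported here. Alternatives covered pseudocounts, filters, scalings, variance models, the replicate block and libraries left out.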

Additional observations from a re-analysis of the deposited data

How the results depend on the processing

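The log2(FPKM + 1) fit called 4 of the 38 genes higher and 2 lower. The counts were 8 and 5 with array weights, 0 and 3 without control 1 and K10-spastin 1 together, and 4 and 1 with the replicate block. Higher calls numbered 2 without a variance trend and 1 with no filter. Over the fits without 1 library they ran from 0 to 12 higher and from 0 to 3 lower. Of the further pathway genes 5 were higher and 8 lower, and 11 and 19 with array weights, 2 and 3 with the replicate block, 4 lower at a filter of 5 FPKM and 2 lower with no filter. Without 1 library they ran from 1 to 6 higher and from 1 to 8 lower. Calls over all 11071 genes moved too, from 569 higher and 653 lower to 1535 and 1771 with array weights. With the replicate block they were 274 and 218. Fits with a library left out have fewer samples. Over all 11071 genes the fits without 1 library called from 113 to 691 higher and from 32 to 701 lower. Without control 1 and K10-spastin 1 together these calls were 634 and 625. The cause of the differences between settings was not tested. With the replicate number as a block, Pfkm (adjusted p = 0.0506) and Ldha (0.129) were no longer called and Pfkfb3 was (0.0441). The labels do not say that a number marks a shared litter or day. Deviations of same-numbered libraries correlated at -0.13, -0.38 and -0.05, and those of other pairs at -0.09 to 0.27. These values show no pairing by number, and 3 libraries a group are too few to decide it. All 6 called genes kept their sign under each of 16 settings, and all 6 calls held with pseudocounts of 0.1 and 0.5, a filter of 5 FPKM and array weights. Signs turned in genes that were not called. With array weights these were Slc2a1 (-0.17), Slc2a3 (-0.55), Pdk3 (0.041), Bnip3 (-0.038), Bsg (-0.032) and Pdha1 (0.057). Without control 1 and K10-spastin 1 they were Slc2a1 (-0.063), Slc2a3 (-0.67), Bnip3 (-0.046), Pdha1 (0.095) and Egln2 (0.021). Median-of-ratios scaling turned Slc16a1 (0.091), Pdk3 (0.067) and Pdha1 (0.076). With 1 library left out, values ran from -0.19 to 0.67 for Slc2a3, from -0.22 to 0.090 for Slc16a1, from -0.19 to 0.012 for Pdk3 and from -0.15 to 0.075 for Pdha1. Depth limits Car9, whose control values lie near or below the 0.134 to 0.188 FPKM of 3 fragments in 1 kb.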
